A study of Mus musculus with 48 samples.

Results

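The 10 genes described here encode enzymes that build the outer parts of glycans, the sugar chains on secreted and cell-surface proteins and lipids. They were chosen by symbol, with earlier results of these data known. Fut1, Fut2, Fut4 and Fut8 add fucose, and St3gal4, St3gal6 and St6gal1 add sialic acid. The others are B4galnt1, B4galnt2 and C1galt1. The last 3 are neither fucosyl nor sialyl transferases: B4galnt1 and B4galnt2 add N-acetylgalactosamine next to sialic acid, and C1galt1 adds galactose. All 10 symbols were found once each among the 54532 genes of the count table, and all 10 passed the low-count filter that left 21986 genes for testing.

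The study sequenced total RNA from C57Bl/6J mice at 8 ages (days 0, 2, 4, 6 and 8, and weeks 2, 3 and 4 after birth). A 2 cm piece was taken next to the pylorus (duodenum) and another just before the caecum (ileum), with 3 samples labelled for each of the 16 groups. All animals were untreated, of both sexes and without any engineered allele. They stayed with the dam to day 21 and then ate chow, and the labels call the housing standard germ-free while also speaking of microbial exposure, so their microbial status is not settled here. Animals of a litter were usually spread over a few ages, and the labels do not say whether samples with the same number came from the same animal, so p-values measure the spread between these samples. The 2 day 6 samples numbered 3 were left out, because the one labelled duodenum had Pdx1, a duodenal transcription factor, at 0.115 CPM (counts per 1000000, after scaling of libraries) against 11.1 and 11.8 in the other 2, and the one labelled ileum had 14.6. This left 46 samples with totals of 16824021 to 65042327 counts. Duodenum day 0 samples 2 and 3 stood apart in another way: they held both the female transcript Xist (743 and 814 CPM) and the Y-linked Ddx3y (21 and 25 CPM), and no other of the 46 samples had 10 CPM or more of both. The nearest was ileum day 4 sample 1, with 8 CPM of Xist and 59.3 of Ddx3y. Results that use duodenum day 0 are given with and without these 2 samples where a call changed, which leaves 1 sample assumed to vary like the other groups. Same-numbered duodenum and ileum samples had the same one of Xist and Ddx3y higher in 23 of 23 pairs. The samples of a region differed in which was higher at 5 of the 8 ages. At days 6 and 8 and week 4 every sample had Xist higher, so those pairs could not differ. The tissue is labelled whole thickness. Summed smooth muscle markers were 3.56 to 168 CPM over the 46 samples, against 2709 to 11130 CPM for 5 epithelial markers. In such bulk tissue, fewer cells of a type and less RNA per cell cannot be told apart.

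As background, fucose and sialic acid cap the glycans of the intestinal surface and of mucus, where they serve as attachment sites and food for microbes and as ligands for host lectins. Fut2 and Fut1 make the H antigen, the precursor of the blood group antigens, and Fut2 does so in mucosal epithelia. In the mouse gut a switch from sialylated to fucosylated glycans around weaning is well known. The order of the account follows the enzymes' products: H antigen, other fucose linkages, sialic acid, N-acetylgalactosamine, and the galactose of mucin-type O-glycans.

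The genes lie on 7 chromosomes (GENCODE M21, GRCm38/mm10, the build that the labels name). Fut1 is at chr7:45617289-45621059 on the plus strand and Fut2 at chr7:45648591-45666394 on the minus strand, 27531 bp apart with 5 annotated genes between them. The other genes are Fut4 (chr9:14748320-14752393), Fut8 (chr12:77238125-77476338), St3gal4 (chr9:35046576-35119268), St3gal6 (chr16:58468125-58524243), St6gal1 (chr16:23224740-23360350), B4galnt1 (chr10:127165225-127172330), B4galnt2 (chr11:95865943-95914891) and C1galt1 (chr6:7844842-7875687). The use of strand in counting is not given in the sources used here, so reads of genes that overlap on opposite strands may not be separable. Among protein-coding genes, Dcbld2 overlaps St3gal6 and Slc26a10 overlaps B4galnt1. Other annotated genes on the opposite strand overlap Fut8 (9530018F02Rik), St3gal4 (4930581F22Rik), St6gal1 (BC106179), B4galnt2 (Gm11534) and C1galt1 (Gm43962).

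The upstream sequences of St3gal4 and B4galnt2 are shown because both genes rose from week 2 to week 3 in both regions and each has a single start listed in RefSeq (GRCm38.p6). Bases that GENCODE annotates as exon of the same gene were left out, and exons of other genes were not considered. Each sequence is printed 5′ to 3′ on the gene's strand with matches to the GC box (GGGCGG, either strand) in capitals. Fut4 met the same 2 conditions but is not shown, because all 250 of its upstream bases are annotated as exon. Those bases held 0 GC boxes.
St3gal4, chr9:35116874-35117114, minus strand: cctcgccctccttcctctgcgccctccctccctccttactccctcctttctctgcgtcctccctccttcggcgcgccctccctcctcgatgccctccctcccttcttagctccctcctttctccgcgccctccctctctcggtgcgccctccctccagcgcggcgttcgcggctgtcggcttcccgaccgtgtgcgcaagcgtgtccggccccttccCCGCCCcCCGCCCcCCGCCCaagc
B4galnt2, chr11:95914892-95915121, minus strand: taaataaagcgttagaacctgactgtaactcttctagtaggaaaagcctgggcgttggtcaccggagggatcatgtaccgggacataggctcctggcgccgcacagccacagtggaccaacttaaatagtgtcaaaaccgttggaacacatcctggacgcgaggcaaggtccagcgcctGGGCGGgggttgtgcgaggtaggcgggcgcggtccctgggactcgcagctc
The St3gal4 stretch of 241 bases holds 3 matches, side by side near its 3′ end, and the B4galnt2 stretch of 230 bases holds 1. The St3gal4 stretch is upstream of the RefSeq start but lies inside the GENCODE gene, whose 5′ end is at 35119268. It also lies inside 4930581F22Rik (35116728-35130922), a gene annotated on the other strand. For comparison, 33.0% of 32536 RefSeq windows of 250 upstream bases hold at least 1 GC box. A match is a description of the letters and not a binding site. RefSeq promoter entries were matched for 8 of the 10 genes, all but Fut2 and B4galnt1.

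Compared per kilobase of merged exons, St3gal4 had the highest mean level of the 10 genes in all 16 groups (68.3 to 480 CPM per kb) and Fut1 the lowest in all 16 (0.04 to 0.40 CPM per kb). B4galnt2 ranked between 2 and 3, B4galnt1 between 3 and 5, and Fut2 between 6 and 9. Merged exon length ignores which transcripts were made, so these ranks are approximate.

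Age was tested within each region across its 8 ages (edgeR quasi-likelihood test, Benjamini-Hochberg adjustment over all 21986 genes, threshold 0.05). In the duodenum 9 of 10 genes were called, beside 67.4% of all genes, and in the ileum 9 of 10, beside 58.7%. C1galt1 was the gene not called in either region (adjusted p = 0.31 and 0.1). Since most genes varied with age, the steps between ages carry more of the description than these counts.

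**Figure D1:**
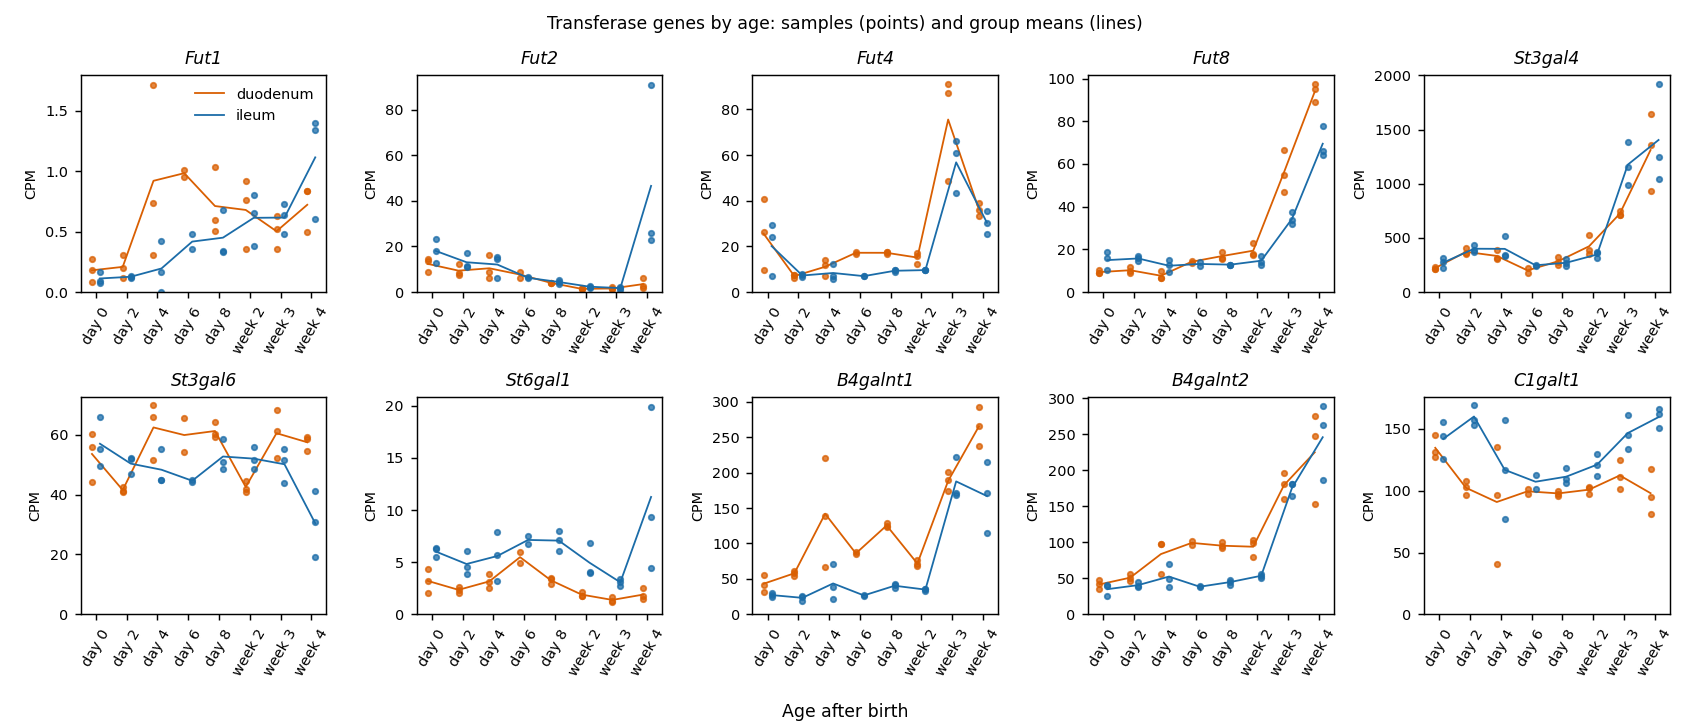
Level of each of the 10 genes in every sample (linear scale, CPM after TMM scaling) against the 8 ages, with duodenum and ileum samples as separate points and lines through the group means. Fut2 falls from day 0 to week 2 and is then high in the 3 ileum samples of week 4 (22.9 to 91 CPM), while Fut8, St3gal4, B4galnt1 and B4galnt2 are higher at weeks 3 and 4 than at week 2 in both regions.

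Fut2 was high at birth, low at 2 and 3 weeks, and high again at 4 weeks in the ileum. In the duodenum it went from 8.73, 13.8 and 14.6 CPM (day 0) to 1.35, 1.12 and 1.75 CPM (week 2). The ileum went from 12.6, 23.3 and 18.2 CPM (day 0) to 1.82, 2.86 and 2.32 CPM (week 2). Every sample of week 2 was below every sample of day 0 in each region. The fall from day 0 to week 2 was 8.67-fold in the duodenum (log2 fold change -3.12 ± 0.47 (SE), n = 3 and 3, edgeR adjusted p = 5.1e-06) and 7.69-fold in the ileum (-2.94 ± 0.46, edgeR adjusted p = 1.4e-05).

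At week 3 Fut2 was 2.16, 1.11 and 1.93 CPM in the ileum, and at week 4 it was 26, 91 and 22.9 CPM. The 3 ileum samples of week 4 stood above all other ileum samples, except that 1 day 0 sample (23.3 CPM) lay above the lowest of them. The rise from week 3 to week 4 was 26.8-fold (log2 fold change 4.75 ± 0.50, edgeR adjusted p = 9.2e-09). Without the sample at 91 CPM the log2 fold change was 3.79 (adjusted p = 4.8e-08, edgeR). Against day 0 the ileum of week 4 was higher by 1.38 ± 0.42 on the log2 scale (edgeR adjusted p = 0.0081). This call was lost without that sample (0.39, adjusted p = 0.45, edgeR) and without sample 1 of day 0 (1.17, adjusted p = 0.052, edgeR).

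The duodenum had Fut2 at 1.27, 1.12 and 2.29 CPM (week 3) and at 2.56, 6.17 and 1.73 CPM (week 4). These groups overlapped, and the difference of 1.16 ± 0.46 on the log2 scale was not called (edgeR adjusted p = 0.088; DESeq2 called it, adjusted p = 0.041). At week 4 the ileum was 13.4-fold above the duodenum (log2 fold change 3.74 ± 0.47, edgeR adjusted p = 4.7e-07), with all ileum samples above all duodenum samples. At day 8 the regions were close, at 3.52, 5.22 and 4.47 CPM in the ileum and 3.89, 4.09 and 4.16 CPM in the duodenum. The age course differed between the regions (region by age interaction, edgeR adjusted p = 0.00048).

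Over all 16 groups the mean of Fut2 spanned 1.41 CPM (duodenum week 2) to 46.6 CPM (ileum week 4). When the groups were ordered by mean, 14 of the 15 neighbouring pairs overlapped in their samples. The genes whose group means followed Fut2 most closely over the 16 groups, of 11399 candidates, were Niban1 (Pearson r = 0.87), Cnn2 (0.85) and Itga5 (0.80). These correlations are a description across groups that share ages and regions.

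Other measures moved with the ileum of week 4. The summed level of 6 immune markers was 22.1 to 28.2 CPM (week 3) and 127 to 382 CPM (week 4) in the ileum, with none of the 6 at 0. Of the 6, 5 rose in this step in each region and Csf1r, a macrophage marker, fell. The summed level had been 121 to 149 CPM (week 2) in the ileum, and in the duodenum it was 26.9 to 31.8 CPM (week 3) and 69.4 to 74.3 CPM (week 4). Epithelial subtypes moved too: in the ileum summed tuft cell markers were 3.36 to 7.57 CPM (week 3) and 21.8 to 67.1 CPM (week 4), with 4 of 4 tested rising, and Paneth cell markers were 666 to 1428 and 2033 to 3854 CPM, with 4 of 5 rising. Goblet cell markers were 7044 to 8588 and 12140 to 16180 CPM, with 2 of 5 rising. The mitochondrial share of counts was 14.6% to 16.9% at week 3 and 22.1% to 35.2% at week 4. In the ileum of week 4, Ptprc, the pan-leukocyte marker CD45, was 69.6, 105 and 205 CPM in samples 1, 2 and 3. The highest Fut2 value was in sample 2. Fabp6, an ileal bile acid binding protein, was 41.7 CPM in sample 1 against 1256 and 1936 CPM in the other 2. Xist exceeded Ddx3y in 3 of 3 samples of week 4 and in 1 of 3 of week 3 in each region. With a sex index as covariate, added after seeing the data, the rise of Fut2 in the ileum was 4.4 on the log2 scale (edgeR adjusted p = 2.7e-08). The part of these cell types, and of the mitochondrial share, in the Fut2 result was not tested.

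Fut1, the other H antigen enzyme, stayed near the detection limit with 0 to 55 counts per sample. It was 0.0832, 0.273 and 0.182 CPM (day 0) and 0.834, 0.834 and 0.495 CPM (week 4) in the duodenum. Ileum samples had 0.0739, 0.167 and 0.095 CPM (day 0) and 1.34, 1.40 and 0.601 CPM (week 4). All week 4 samples were above all day 0 samples in both regions. The log2 fold change was 2.05 ± 0.61 for the duodenum (edgeR adjusted p = 0.0063) and 3.33 ± 0.66 in the ileum (adjusted p = 7.2e-05, edgeR).

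Fut4, which makes Lewis x type structures, peaked at week 3 in both regions. In the duodenum it was 12.4, 16.9 and 16 CPM (week 2), 91, 87 and 48.7 CPM (week 3) and 33.5, 36.1 and 39 CPM (week 4). Ileum samples held 9.46, 9.67 and 9.71 CPM, then 66.3, 60.8 and 43.4 CPM, then 35.6, 30.2 and 25.4 CPM. In each region the week 3 samples lay above all samples of weeks 2 and 4. From week 2 to week 3 the log2 fold change of Fut4 was 2.32 ± 0.36 in the duodenum (edgeR adjusted p = 6.5e-06) and 2.56 ± 0.37, a 5.91-fold rise, in the ileum (edgeR adjusted p = 9.3e-07). From week 3 to week 4 the duodenum fell by 1.06 ± 0.35 (log2; edgeR adjusted p = 0.038), a call that was lost without 5 of the 6 samples of weeks 3 and 4 taken singly; in the ileum the difference was -0.90 ± 0.35 (edgeR adjusted p = 0.075).

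At day 0 Fut4 was spread widely within a region, at 9.76, 26.3 and 40.7 CPM in the duodenum and 7.06, 24.1 and 29.2 CPM in the ileum. Sample 1 was the low one in each region. Week 4 against day 0 was not called in either region (adjusted p = 0.26 and 0.18, edgeR). Without duodenum samples 2 and 3 of day 0, which held Xist and Ddx3y, the duodenum difference was 1.86 and was called (adjusted p = 0.0029, edgeR).

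Fut8, which adds the core fucose of N-glycans, rose at each step from week 2 onward. In the duodenum it was 8.79, 8.79 and 10.4 CPM (day 0), 17.6, 17.4 and 23.1 CPM (week 2), 47, 66.4 and 54.8 CPM (week 3) and 95.3, 88.9 and 97.4 CPM (week 4). Ileum levels were 10.3, 18.5 and 16.1 CPM (day 0), 12.7, 17.1 and 14.2 CPM (week 2), 31.8, 37.5 and 33.5 CPM (week 3) and 77.9, 66.3 and 64.3 CPM (week 4). No sample of a later week overlapped an earlier week from week 2 onward. From week 2 to week 3 Fut8 rose 2.89-fold in the duodenum and 2.33-fold in the ileum (adjusted p = 3e-08 and 1.6e-06, edgeR), and from week 3 to week 4 1.68-fold and 2.03-fold (adjusted p = 0.0038 and 6.9e-05, edgeR).

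The early course of Fut8 differed between the regions. From day 0 to week 2 the duodenum rose by 1.05 ± 0.18 (log2; edgeR adjusted p = 4.1e-05), while the ileum difference was -0.03 ± 0.18 (adjusted p = 0.96, edgeR). At day 0 the ileum was higher by 0.68 ± 0.18 (edgeR adjusted p = 0.021), and at week 3 it was lower, with a log2 fold change of -0.71 ± 0.18 (adjusted p = 0.007, edgeR). The day 0 call was lost when any 1 of 4 samples was left out (adjusted p up to 0.13, edgeR) and without both duodenum samples that held Xist and Ddx3y (0.77, adjusted p = 0.28, edgeR), and the week 3 call without duodenum sample 2 (-0.59, adjusted p = 0.054, edgeR). Every ileum sample was below every duodenum sample at day 8 and at weeks 2, 3 and 4. The region by age interaction had an edgeR adjusted p of 5.2e-05. The genes closest to Fut8 over the 16 groups were Gpr160, Maoa and Ntn4 (r from 0.95 to 0.96).

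St3gal4 had the highest level per kilobase of the 3 sialyltransferases among the 10 genes, which add sialic acid to galactose ends. In the duodenum it was 527, 348 and 392 CPM (week 2), 709, 748 and 711 CPM (week 3) and 929, 1647 and 1356 CPM (week 4). Ileum samples held 364, 310 and 366 CPM (week 2), 1159, 1384 and 985 CPM (week 3) and 1921, 1245 and 1045 CPM (week 4). Week 3 lay above week 2 in every sample of both regions. The rise was 1.71-fold in the duodenum (log2 fold change 0.78 ± 0.20, edgeR adjusted p = 0.0051) and 3.39-fold in the ileum (1.76 ± 0.21, edgeR adjusted p = 1.4e-08). The difference between these 2 rises, 0.99 ± 0.29 on the log2 scale, was not called by edgeR (adjusted p = 0.08) and was called by DESeq2 (adjusted p = 0.016). From week 3 to week 4 it rose again in the duodenum (0.86 ± 0.20, edgeR adjusted p = 0.0034), where without sample 2 of week 4 the value was 0.65 (adjusted p = 0.064, edgeR).

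St3gal6, a related enzyme with a smaller range, spanned group means of 30.4 to 62.4 CPM. In the ileum it was 55.1, 51.4 and 43.8 CPM (week 3) and 41.1, 19.1 and 31 CPM (week 4). All samples of week 4 were below those of week 3. The fall was 0.73 ± 0.17 on the log2 scale (log2 fold change -0.73, edgeR adjusted p = 0.0018). At week 4 the ileum was also below the duodenum, where the values were 59.3, 54.5 and 58.5 CPM (log2 fold change -0.92 ± 0.17, edgeR adjusted p = 0.00013).

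St6gal1, which adds sialic acid in another linkage and is known for high expression in B cells, was higher in the ileum than in the duodenum. Over the mean of 8 ages the ileum was 2.24-fold above the duodenum (log2 fold change 1.17 ± 0.12, edgeR adjusted p = 2.5e-10). All ileum samples were above all duodenum samples at 7 of the 8 ages, day 4 being the age at which they overlapped. At week 3 it was 3.40, 3.14 and 2.70 CPM in the ileum and 1.67, 1.22 and 1.28 CPM in the duodenum. At week 4 it was 4.49, 9.37 and 19.9 CPM in the ileum and 1.43, 2.50 and 1.77 CPM in the duodenum. The ileum samples of week 4 were all above those of week 3 and differed among themselves more than at any earlier age. The rise in the ileum was 3.63-fold (1.86 ± 0.34, edgeR adjusted p = 0.00011), and without sample 3 it was 1.16 on the log2 scale (adjusted p = 0.012, edgeR). In these 3 samples St6gal1 and Ptprc, 1 of the 6 immune markers, had the same order, sample 1 lowest and sample 3 highest. Between the regions, mean summed immune markers were lower in the ileum at day 0 (82.2 against 101 CPM) and week 3 (25.9 against 29.8 CPM). They were higher in the ileum at the other ages. The part of immune cells in the St6gal1 result was not tested.

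B4galnt1, which makes the complex gangliosides, and B4galnt2, which makes the Sda antigen of intestinal epithelium, had similar courses (r = 0.94 over the 16 group means). B4galnt1 was 71.3, 67.7 and 76.2 CPM (week 2), 201, 189 and 174 CPM (week 3) and 237, 293 and 265 CPM (week 4) in the duodenum. The ileum had 33.7, 35.3 and 36 CPM, then 171, 222 and 169 CPM, then 215, 171 and 115 CPM. At week 2 every ileum sample was below every duodenum sample, and at week 3 the regions overlapped. The rise from week 2 to week 3 was 2.62-fold in the duodenum (log2 fold change 1.39 ± 0.28, edgeR adjusted p = 0.00027) and 5.36-fold in the ileum (2.42 ± 0.29, edgeR adjusted p = 2.2e-08). The difference between these rises was 1.03 ± 0.39 on the log2 scale (adjusted p = 0.27, edgeR). Frat2, Itpka and Serinc2 were the closest genes over the 16 groups (r from 0.96 to 0.97).

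B4galnt2 was 79.3, 99 and 103 CPM (week 2) and 160, 196 and 181 CPM (week 3) in the duodenum. Ileum levels were 50.9, 56.3 and 53.6 CPM (week 2) and 164, 181 and 181 CPM (week 3). The samples of the 2 weeks did not overlap in either region. The rise was 1.91-fold in the duodenum (log2 fold change 0.93 ± 0.21, edgeR adjusted p = 0.00088) and 3.27-fold in the ileum (1.71 ± 0.21, edgeR adjusted p = 3.5e-08). At week 4 it was 152, 275 and 247 CPM in the duodenum and 288, 263 and 186 CPM in the ileum, and the step from week 3 was not called in either region (adjusted p = 0.31 and 0.11, edgeR).

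C1galt1, which makes core 1, the base of most mucin-type O-glycans, varied least, with group means of 90.8 to 160 CPM. The lowest sample was duodenum day 4 number 3 at 41.1 CPM, against 96.2 and 135 CPM in the other 2. The ileum mean was above the duodenum mean at all 8 ages (1.27-fold over the 8 ages, log2 fold change 0.34 ± 0.08, edgeR adjusted p = 0.00033). Without the 6 samples of day 4, an alternative added after seeing the data, age was called for C1galt1 in both regions (adjusted p = 0.0003 in the duodenum and 1e-05 in the ileum, edgeR).

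**Figure D2:**
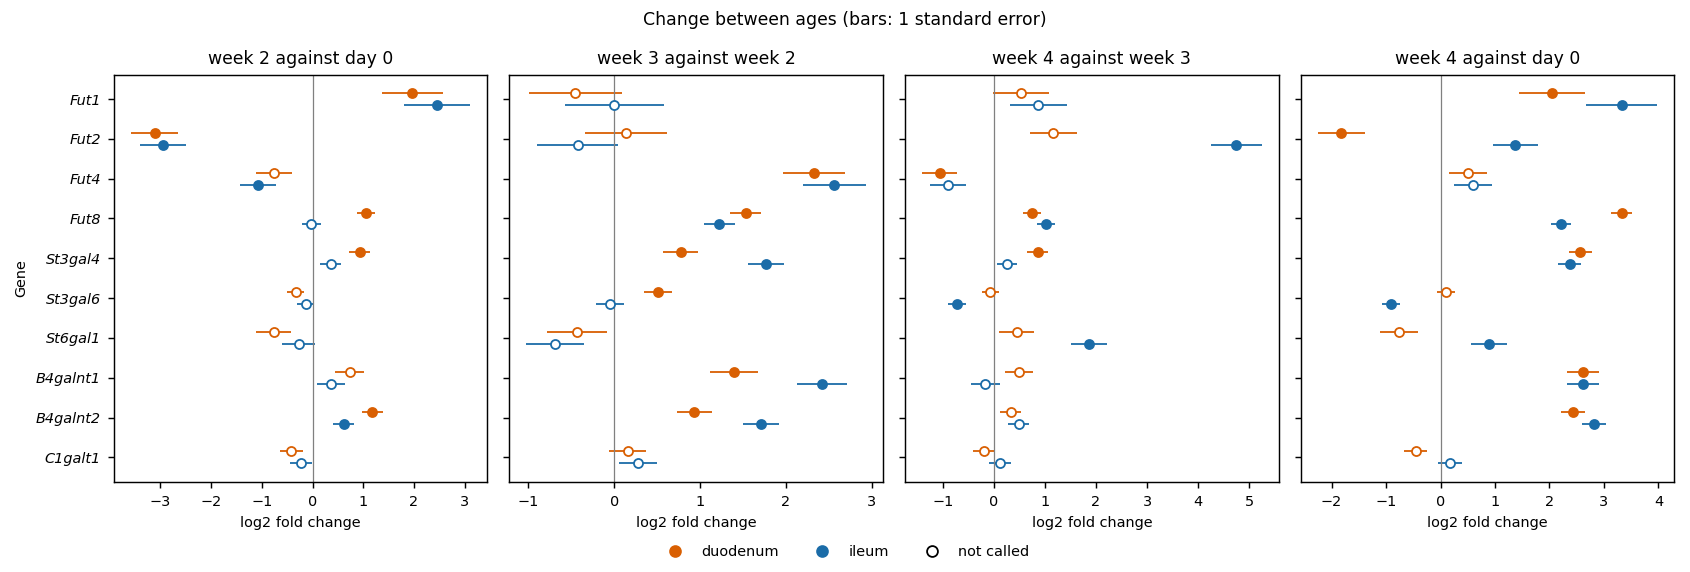
Log2 fold change of each of the 10 genes in each step between ages (week 2 against day 0, week 3 against week 2, week 4 against week 3) and over the span from day 0 to week 4, with bars of 1 SE, for duodenum and ileum; filled points passed the threshold of 0.05. Fut4, Fut8, St3gal4, B4galnt1 and B4galnt2 rise from week 2 to week 3 in both regions, and Fut2 rises by 4.75 from week 3 to week 4 in the ileum.

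Counted by step, the week 3 against week 2 comparison had the most calls in one direction. In the duodenum 6 of 10 genes rose and none fell, beside 18.3% of all genes called (7.7% rising, 10.6% falling), and in the ileum 5 of 10 rose and none fell, beside 26.8% called (12.9% rising, 13.9% falling). Fut4, Fut8, St3gal4, B4galnt1 and B4galnt2 rose in both regions, and St3gal6 in the duodenum as well, a call that was lost when any 1 of 4 samples was left out (adjusted p up to 0.14, edgeR). The median log2 fold change of the 10 genes was 0.64 in the duodenum and 0.75 in the ileum, beside 0.03 for all genes in each. Summed epithelial markers were 1.62 times as high at week 3 as at week 2 in the duodenum and 2.53 times in the ileum, and 3 of 5 of them rose in each region. Summed immune markers went the other way, to 0.267 of their week 2 level in the duodenum and 0.195 in the ileum, where 2 and 1 of the 6 fell and 1 and 0 rose. Summed enteric neuron and glia markers were 41.1 to 53.5 CPM (week 2) and 14.3 to 18.1 CPM (week 3) in the duodenum, and 112 to 122 and 15.3 to 22.5 CPM in the ileum. Of these 6 markers, 1 fell and 1 rose in the duodenum, and 1 fell and 0 rose in the ileum. Ret was the marker that fell in both. The part of these cell types in the rises was not tested.

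From day 0 to week 2, 5 of 10 genes were called in the duodenum, beside 23.5% of all genes (12.1% higher, 11.3% lower): Fut1, Fut8, St3gal4 and B4galnt2 rose and Fut2 fell. In the ileum 4 of 10 were called, beside 12.3% (6.43% higher, 5.92% lower): Fut1 and B4galnt2 rose, and Fut2 and Fut4 fell. Several of these calls did not hold when 1 sample was left out. Those of Fut4 and B4galnt2 in the ileum were each lost in 5 of the 6 fits that left out 1 sample of the step (adjusted p up to 0.30 and 0.26, edgeR). The Fut1 call was lost in the duodenum without sample 1 of day 0 or sample 3 of week 2 (adjusted p = 0.093 and 0.084, edgeR) and in the ileum without sample 3 of day 0 (adjusted p = 0.056, edgeR). Without the 2 duodenum day 0 samples that held Xist and Ddx3y, the duodenum calls of Fut1 (2.99, adjusted p = 0.057, edgeR) and St3gal4 (0.85, adjusted p = 0.074, edgeR) were lost. From week 3 to week 4, 3 of 10 were called in the duodenum, beside 12.7% (7.75% higher, 4.96% lower): Fut8 and St3gal4 rose and Fut4 fell. In the ileum 4 of 10 were called, beside 16.1% (8.26% higher, 7.81% lower): Fut2, Fut8 and St6gal1 rose and St3gal6 fell. Over the whole span from day 0 to week 4, 6 of 10 were called in the duodenum, 5 higher and 1 lower, beside 40.5% (20.4% higher, 20.1% lower). In the ileum 8 of 10 were called over that span, 7 higher and 1 lower, beside 41.9% (21.5% higher, 20.4% lower). Of these, the St6gal1 call was lost without any 1 of 4 samples, with a log2 fold change of 0.17 without sample 3 of week 4 (adjusted p = 0.73, edgeR). Fut2 ended lower than at birth in the duodenum (log2 fold change -1.82 ± 0.44, edgeR adjusted p = 0.00098) and higher in the ileum; the duodenum call was lost without the 2 day 0 samples that held Xist and Ddx3y (-1.35, adjusted p = 0.084, edgeR). These comparisons share samples with each other.

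**Figure D3:**
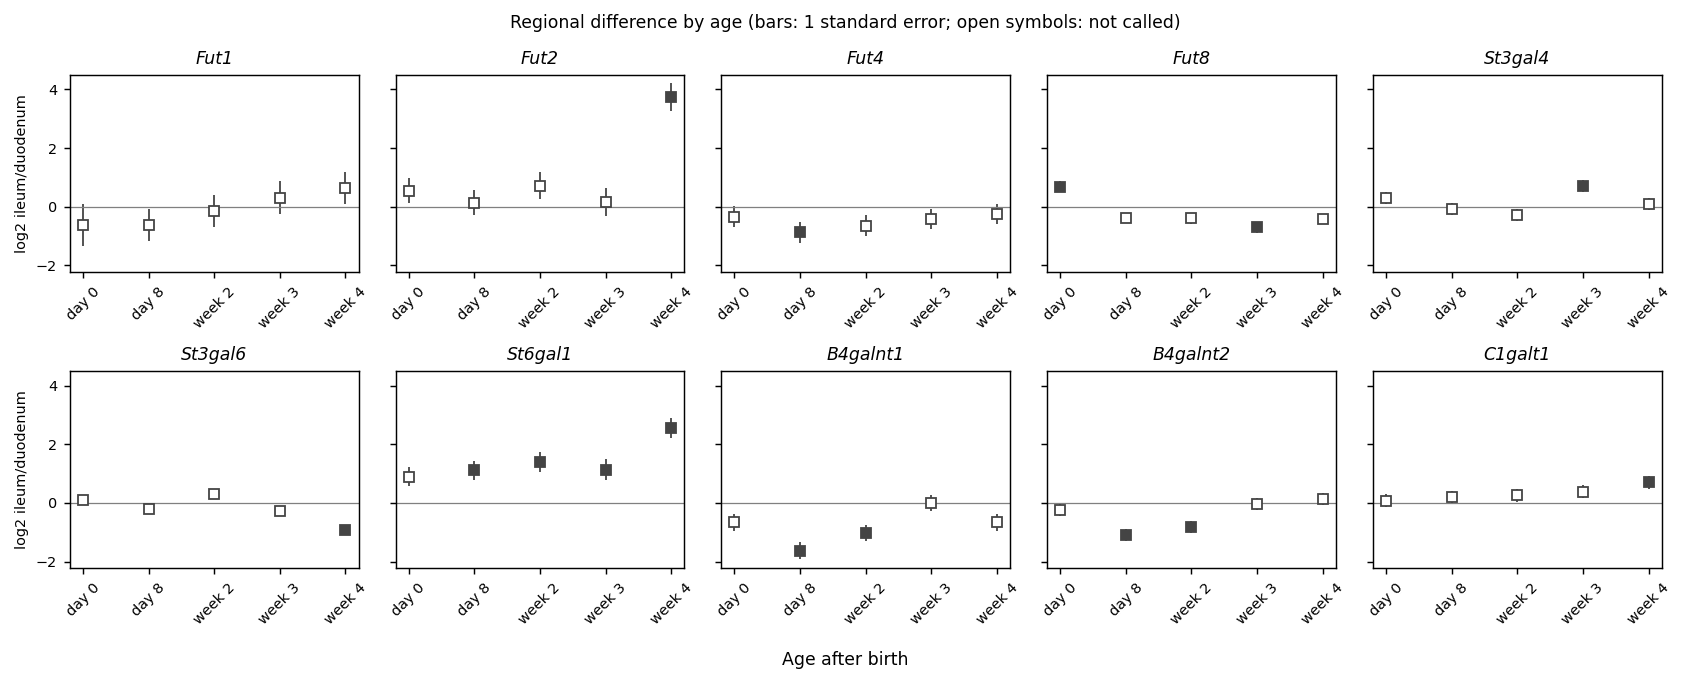
Log2 fold change of ileum against duodenum for each of the 10 genes at day 0, day 8 and weeks 2, 3 and 4, with bars of 1 SE; filled points passed the threshold of 0.05. St6gal1 lies above 0 and B4galnt1 below 0 at all of these ages, and Fut2 reaches 3.74 at week 4. The points of B4galnt1 passed the threshold at day 8 and week 2 only.

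Between the regions, over the mean of 8 ages, 9 of 10 genes were called, beside 62.1% of all genes (31.9% higher, 30.2% lower), 4 higher and 5 lower in the ileum. B4galnt1 was the furthest below (log2 fold change -1.09 ± 0.10, edgeR adjusted p = 2e-11) and St6gal1 the furthest above. The call of St3gal4 (0.18 ± 0.07, edgeR adjusted p = 0.038) was lost in 13 of 30 fits that left out 1 sample, and both it and the Fut1 call were lost without the 2 duodenum day 0 samples that held Xist and Ddx3y (adjusted p = 0.082 and 0.11, edgeR). At single ages fewer were called. At day 0 it was Fut8 alone, higher in the ileum, beside 6.1% of all genes (2.97% higher, 3.14% lower). At day 0 and weeks 2 and 3 the same-numbered samples of the regions deviated together, and with the replicate number as a block St6gal1 was also called at day 0 (0.96, adjusted p = 0.032, edgeR) and Fut2 (0.72, adjusted p = 0.025, edgeR) and Fut4 (-0.64, adjusted p = 0.0028, edgeR) at week 2. Day 8 had 1 higher and 3 lower, beside 39.6% (17.1% higher, 22.6% lower), and week 2 had 1 higher and 2 lower, beside 22.4% (10.6% higher, 11.8% lower). Week 3 had 2 higher and 1 lower, beside 14.2% (7.28% higher, 6.9% lower), and week 4 had 3 higher and 1 lower, beside 28.4% (14.5% higher, 13.9% lower). Among these, the calls of Fut4 at day 8 (lower), of St3gal4 and St6gal1 at week 3 and of C1galt1 at week 4 (higher) did not hold throughout. The Fut4 call was lost under 10 of 13 alternatives: in all 6 fits that left out 1 sample (adjusted p up to 0.12, edgeR), with RLE scaling, with no filter, with all 48 samples and with DESeq2 (adjusted p = 0.055). Those of St3gal4, St6gal1 and C1galt1 were lost without any 1 of 4, 4 and 3 samples (adjusted p up to 0.10, 0.094 and 0.094, edgeR). At day 8 B4galnt1 was 129, 123 and 125 CPM in the duodenum and 37.2, 42.4 and 41.7 CPM in the ileum (log2 fold change -1.63 ± 0.28, edgeR adjusted p = 4.4e-05). The course over the 8 ages differed between regions for 6 of 10 genes (22.4% of all genes): Fut2, Fut8, St3gal6, St6gal1, B4galnt1 and B4galnt2. For the rise from week 2 to week 3 alone, the difference between regions was called by edgeR for 0 of 10 genes (1.38% of all genes); 4 had an unadjusted p under 0.05, and DESeq2 called 1, St3gal4.

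The other genes of the pathway were followed in 7 lists of 81 genes. Of 16 other sialyltransferases tested, 5 fell and 1 rose in each region from week 2 to week 3, when the summed immune and neuron and glia markers were also lower; the part of those cells was not tested. The lists of this step stand beside shares of all genes called of 18.3% (duodenum) and 26.8% (ileum). The largest falls in the ileum were St3gal5, the GM3 synthase (log2 fold change -6.10), and St3gal3 (-3.94), and the 1 rise was St6galnac5 (3.15). In the duodenum they were St3gal5 (-4.66) and St6galnac1 (-3.91), and the rise was St8sia1 (1.86). The median of the 16 log2 fold changes was -0.45 in the duodenum and -0.42 in the ileum, beside 0.03 for all genes in each.

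Of 11 genes tested that supply GDP-fucose, the fucose donor, 5 rose and 1 fell in the duodenum, and 7 rose and 1 fell in the ileum over the same step (medians 0.38 and 0.65). Mpi rose most in both (log2 fold change 1.83 in the duodenum and 1.95 in the ileum), Fcsk, the fucose kinase, was next in the duodenum (1.04) and Gmds, which starts the making of GDP-fucose from GDP-mannose, in the ileum (1.13). Gmppb fell in both (-0.77 and -0.74). Of the 6 other fucosyltransferases tested, Pofut1, which fucosylates Notch receptors, fell in both regions (-1.78 and -2.07) and none rose; 1 of 6 is no more than the share of all genes called.

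Of 5 fucosidases and sialidases tested, which remove these sugars, none rose, while 3 fell in the duodenum and 4 in the ileum (medians -1.25 and -1.55). Fuca1 fell by 1.97 and Neu1 by 2.07 in the duodenum on the log2 scale, and Fuca1 by 2.68 and Fuca2 by 1.78 in the ileum. Of 15 other galactose and N-acetylgalactosamine transferases tested, 5 rose and 1 fell in the duodenum and 8 rose and 1 fell in the ileum, led by B4galt1 in the duodenum (1.98) and B4galt6 in the ileum (2.39), with B3galnt1 the gene that fell (-2.01 and -2.08). Of 17 genes of O-glycan initiation and cores, 3 rose and 2 fell in the duodenum and 5 rose and 2 fell in the ileum, with B3gnt6, the core 3 enzyme, rising most (2.50 and 3.25). Of 7 genes of CMP-sialic acid supply, 1 rose and 2 fell in the duodenum and 1 rose and 1 fell in the ileum, close to the share of all genes in the ileum.

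From week 3 to week 4 in the ileum, where Fut2 rose, B3galt5, which makes a type of chain that H antigen enzymes can extend, rose by 5.21 on the log2 scale, from a mean of 1.97 to 73.6 CPM (edgeR adjusted p = 1e-07). Beside 16.1% of all genes called, 6 of 16 other sialyltransferases rose and 1 fell, with St8sia6 (2.17) and St8sia1 (2.07) the largest rises and St3gal1 the fall (-2.40). Of 11 genes of GDP-fucose supply 2 were called, near the share of all genes: Gmds rose (1.26) and Slc35c2 fell (-1.04).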

How the data were processed

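RNA-seq of 48 samples was deposited as a table of estimated counts per gene, which hold whole numbers, and 2 tables of normalized signal. Per the submitters' processing notes the tools included STAR 2.6.1d, Salmon 0.14.2 and DESeq2 1.30.1 with mm10; their roles and settings are not given in the sources used here. Each of the 40 deposited signal columns equalled the deposited counts divided by 1 factor (relative spread under 1e-06), and the signal tables were used only for symbols and this check. The signal tables hold no column for the 6 samples of day 4 or for the 2 day 6 samples numbered 3.

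The expected counts of 46 samples were fitted in edgeR 4.0.16 (R 4.3.3): TMM scaling, filterByExpr over 16 groups, robust quasi-likelihood tests, and Benjamini-Hochberg adjustment over 21986 genes for each of 18 comparisons (threshold 0.05). SE was obtained from the fold change and the F statistic of each test. CPM are counts per 1000000 after TMM. Scripts were tested on simulated data. The labels do not say that replicate numbers mark an animal. Same-numbered samples of the regions deviated together (r over 0.1) in all 3 pairs at day 0, day 2, week 2 and week 3, where the block is given beside regional calls that it changed, and not in every pair at the other ages with 3 pairs. Alternatives were RLE scaling, no filter, DESeq2 1.42.0, a replicate block, all 48 samples, single samples left out and, added after seeing the data, no day 4 samples, a sex index and the omission of 2 duodenum day 0 samples.

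All 10 genes are named. From each list the 2 largest rises and 2 largest falls called could be named. For likeness, the 3 genes with the highest correlation of group means (log2 CPM with a prior count of 2, mean at least 1) were named for the 3 members with the widest range. The members and lists were chosen with earlier results of these data known. Totals of 16824021 to 65042327 counts limit precision mainly for Fut1. Values of 2 marker genes are not reported here.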

Additional observations from a re-analysis of the deposited data

Results flagged for a closer look

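The age course differed between ileum and duodenum, by the region by age interaction of edgeR's quasi-likelihood fit, for 6 of the 10 genes, beside 22.4% of all genes. The adjusted p was 0.000484 for Fut2, whose ileum samples of week 4 stood 13.4-fold above the duodenum. It was 5.18e-05 for Fut8, higher in the ileum at day 0 and lower at week 3, and 0.00244 for St3gal6, lower in the ileum at week 4. B4galnt1 and B4galnt2 were both lower in the ileum at day 8 and week 2 and overlapped with the duodenum at week 3. At week 4 every B4galnt1 sample of the ileum was again below every duodenum sample, while B4galnt2 overlapped. The adjusted p was 0.00956 for B4galnt1 and 0.00308 for B4galnt2, each call being lost under 1 of 38 alternatives. For St6gal1 it was 0.0416, and this call was lost in 14 of 30 fits that left out 1 sample and without the 2 duodenum day 0 samples that held Xist and Ddx3y (0.0508), with an adjusted p of 0.255 without ileum week 4 sample 3.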

How the results depend on the processing

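Of the 89 calls of single genes over the 18 comparisons, 65 held under every alternative run, and 24 were lost under at least 1. Among those lost were the calls of Fut4 in the duodenum from week 3 to week 4 and of St3gal6 in the duodenum from week 2 to week 3. Of the 91 results not called, 46 changed under at least 1 alternative, by becoming called or by a change of sign. Single samples of days 2, 4 and 6 (16 samples) were not left out in turn, to keep within the computing limit; the other 30 were. Calls of the 10 genes concern mRNA in bulk tissue, and Fut1 rests on few counts.

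Same-numbered duodenum and ileum samples deviated together with r over 0.1 in 16 of 23 pairs (lowest -0.36): in all 3 pairs at day 0, day 2, week 2 and week 3, in 1 of 3 at day 4 and week 4, and in 0 of 3 at day 8. For comparisons between regions the replicate block was the age with the number. For comparisons of ages within a region it was the number alone, which is not this pairing of regions. Across ages, same-numbered samples of a region had a mean r of -0.0606 to 0.015. The replicate block gave 0.91 to 1.13 times as many calls over all genes, gained 6 calls of the 10 genes and lost 2. With the block, 2 of the 10 genes were called between regions at day 0 and 5 at week 2. Beside the calls named in the results, it gained B4galnt1 between regions at week 4 (adjusted p = 0.015), B4galnt1 in the duodenum from day 0 to week 2 (0.042) and Fut4 in the region by age interaction (0.0042), and lost St3gal4 between regions over 8 ages (0.069) and Fut4 in the ileum from day 0 to week 2 (0.056, all edgeR).

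Counts of all genes called moved by more than 1.5 times as follows. With all 48 samples they were 1816 (duodenum week 4 against week 3), 1779 (ileum week 2 against day 0, with 2 of the 10 genes), 539, 2477 (1 of the 10 genes) and 1331 (regions at day 0, week 2 and week 3), 894 (region by age) and 104 (regional difference of the week 2 to week 3 step). Without day 4 they were 4559 (duodenum week 4 against week 3), 2412 (regions at day 0, with 2 of the 10 genes), 5581 (regions at week 3), 9448 (region by age) and 664 (regional difference of the step, with 1 of the 10 genes). With no filter 894 genes were called between regions at day 0. DESeq2 called 577 for the regional difference of the step, 1 of the 10 genes. Without the 2 duodenum day 0 samples that held Xist and Ddx3y they were 5536 (duodenum week 4 against day 0), 2370 (duodenum week 2 against day 0, with 3 of the 10 genes) and 73 (regions at day 0, with 0 of the 10 genes), with 1 sample left in that group. Why these counts moved was not tested.

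Leaving out 1 sample gave 1624 to 2686 calls and 1 to 3 of the 10 genes for duodenum week 4 against week 3, 1 to 3 of the 10 genes for ileum week 2 against day 0, and 2339 to 4371 calls for ileum week 4 against week 3. Between regions it gave 509 to 1278 calls and 0 to 1 of the 10 genes at day 0, 3245 to 4327 calls at week 2, 1639 to 3130 and 0 to 3 at week 3 and 2894 to 7206 at week 4. For the regional difference of the step it gave 167 to 302.

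The sign changed in 54 fits of 22 results, and in none of these fits was either value called (smallest adjusted p with all 46 samples 0.117, edgeR). Without those 2 day 0 samples Fut4 was 0.6351 (duodenum week 2 against day 0) and 1.0519 (regions, day 0), and Fut1 0.3797 (regions, day 0). Under RLE and DESeq2 the regional differences became 0.0286 and 0.0285 (Fut8, mean of 8 ages), 0.0146 and 0.0147 (St3gal4, day 8), 0.0309 under both (B4galnt1, week 3) and 0.0047 under both (B4galnt2, week 3). B4galnt1 was 0.0274 with the sex index, Fut8 0.0046 with all 48 samples, and Fut1 from week 2 to week 3 in the ileum -0.0436 with no filter and -0.0605 without day 4. With 1 sample left out the log2 differences spanned, for St3gal6, -0.018 to 0.17 (duodenum week 4 against day 0), -0.17 to 0.0199 (duodenum week 4 against week 3), -0.13 to 0.0347 (ileum week 3 against week 2) and -0.0297 to 0.19 (regions, day 0). For Fut2 they were -0.24 to 0.34 (duodenum week 3 against week 2), -0.009 to 0.29 (regions, day 8) and -0.0396 to 0.53 (regions, week 3). For Fut8 they were -0.23 to 0.14 (ileum week 2 against day 0) and -0.0336 to 0.0184 (regions, mean of 8 ages). For Fut1 they were -0.25 to 0.26 (ileum week 3 against week 2) and -0.45 to 0.14 (regions, week 2), and for Fut4 -0.73 to 0.18 (regions, day 0). For St3gal4 they were -0.0544 to 0.41 (ileum week 4 against week 3), -0.16 to 0.038 (regions, day 8) and -0.21 to 0.28 (regions, week 4). For B4galnt1 they were -0.41 to 0.022 (ileum week 4 against week 3) and -0.16 to 0.0642 (regions, week 3), for B4galnt2 -0.11 to 0.0193 and -0.10 to 0.28 (regions, weeks 3 and 4), and for St6gal1 -0.39 to 0.0679 (regional difference of the step).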
